A study of Mus musculus with 16 samples.

Results

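Interferon-stimulated genes are the genes that cells switch on when interferon binds its receptors. Type I and type III interferons bind different receptors, IFNAR and IFNLR, which both pass the signal through JAK kinases to STAT proteins and IRF9, and the complex they form binds the interferon-stimulated response element in promoters. The products sense viral RNA, degrade it, block its translation or hold virions at the membrane. In the intestine the epithelium answers mostly to type III interferon, and a basal level of these genes is present without infection.

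The 33 genes described here were chosen by name, as a list of receptors, factors, sensors and effectors of this response, out of 45513 genes in the count tables. The 33 symbols each matched 1 gene and all 33 passed the filter on low counts, which left 15323 genes. They were measured in 16 RNA-seq libraries from the small intestine (SI) of 8 adult mice on a C57BL/6 background. The study's methods give both sexes and ages of 8 to 16 weeks for its mice as a whole. They do not give the sex of these 8 mice. All mice carried Atoh1(WT)CreERT2, in which an inducible Cre follows the coding sequence of Atoh1, the factor that sets secretory fate, and R26RtdTom, a tdTomato reporter at the Rosa26 locus. All had received tamoxifen, which the labels and the methods for this comparison both give as 1 mg per day on 3 days. The cells came from crypt-enriched fractions of the proximal SI, and the villus-enriched fraction had been discarded. From each mouse 1 library of EpCAM+tdTom+ cells (secretory) and 1 of EpCAM+tdTom- cells (the rest of the epithelium, mainly absorptive) had been made, so each group had 8 libraries and no mouse lacked the transgenes, the tamoxifen or the sort. No infected or interferon-treated mouse was part of the comparison, and the levels are those of mice kept under standard conditions.

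The libraries held 17116405 to 25323567 counts each. All 8 goblet and all 8 Paneth cell markers were higher in tdTom+ and all 8 absorptive markers were lower, and 7 of 7 tested tuft cell markers were also higher in tdTom+. Of 8 markers of intraepithelial lymphocytes, the T cells that lie between epithelial cells, 6 were lower in tdTom+ and 2 did not pass. Their summed level was 5.96 to 28.9 CPM (counts scaled to a common library size) in tdTom+ and 10.6 to 39 CPM in 6 tdTom- libraries, but 134 CPM in the tdTom- library of mouse 7 and 148 CPM in that of mouse 8. No marker of the list was at 0 in all libraries. The tdTom- library of mouse 7 also had the lowest summed level of the 8 absorptive markers, 14550 CPM against 24820 to 38350 CPM in the other tdTom- libraries. Results are therefore also given without mice 7 and 8. Of 8 myeloid and plasmacytoid markers only 4 passed the filter, all 4 lower in tdTom+, and Siglech stayed at or under 0.845 CPM in every library.

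To determine which interferon-stimulated genes differed between secretory and other epithelial cells, tdTom+ was compared with tdTom- within the mice, with the mouse as a block in edgeR's quasi-likelihood test and a threshold of 0.01 on the Benjamini-Hochberg adjusted p over all genes tested. Of the 33 genes, 7 were higher in tdTom+, 15 were lower and 11 did not pass. Among all 15323 genes 25.8% were higher, 30.0% were lower and 55.8% passed in either direction. The share of members that passed in either direction thus lay near that of all genes, and the fractions differ in most of what they express. The median log2 fold change of the 33 genes was -0.42, against 0.02 over all genes. Without mice 7 and 8, a setting chosen after seeing the data, 7 were higher and 18 were lower, and the median was -0.56. Of all 15226 genes tested in that setting, 4398 were higher and 4591 lower, with a median of 0.04. In sorted populations, fewer cells of a type and less RNA per cell cannot be told apart.

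The response did not move as a block. The 4 genes that rose most were Rsad2, Oas2, Oas3 and Trim25, and the 4 that fell most were Ifit3, Ifi35, Ifit1 and Parp14. The genes of the 2',5'-oligoadenylate synthetase family were higher in tdTom+ for 4 of 5 members, whereas both receptor chains, 3 of 4 transcription factors, 2 of 3 IFIT genes and all 3 genes of the PARP and DTX3L group were lower. The libraries of the fractions did not overlap for 6 of the 33 genes (Irf9, Trim25, Ifit3, Parp9, Dtx3l and Ifi35), against 31.6% of all genes.

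**Figure D1:**
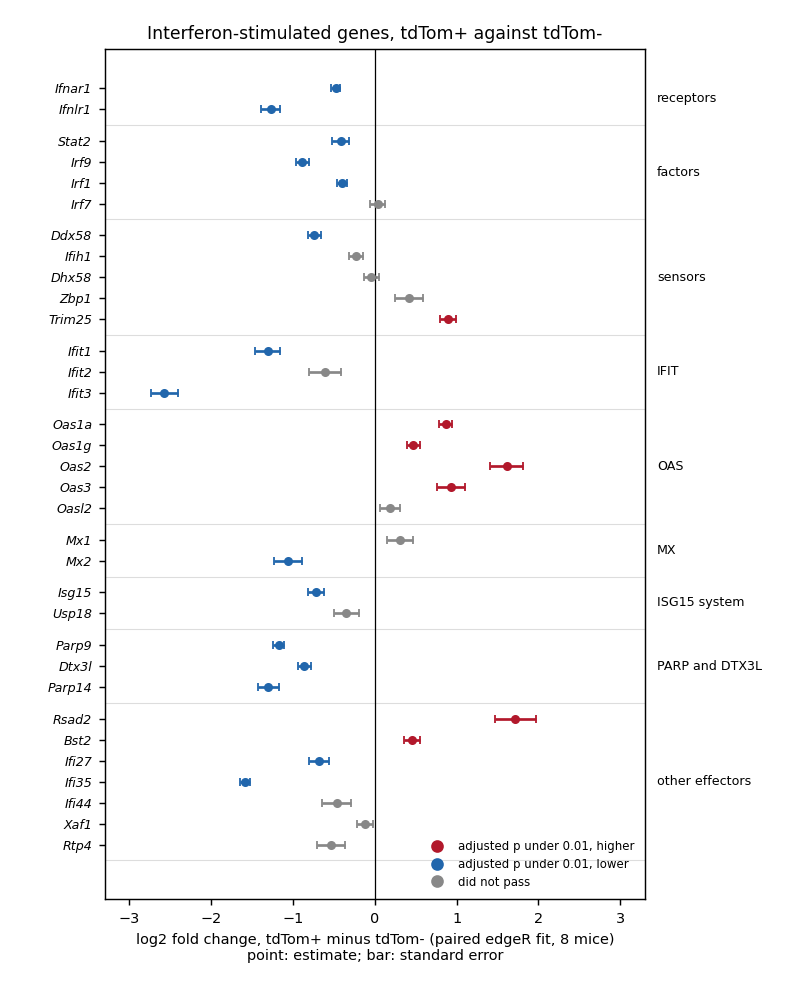
Log2 fold change of the 33 genes between tdTom+ and tdTom- (x axis; points are estimates of the paired fit over 8 mice, bars are standard errors), grouped by role on the y axis and coloured by whether the adjusted p was under 0.01. The 4 OAS genes that passed lie to the right of 0, and the receptors, the PARP and DTX3L group and the IFIT genes lie to the left, with Ifit3 at -2.57 the farthest.

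The promoters of some members that rose and of some that fell held the same short sequence. The core of the interferon-stimulated response element was searched on both strands as GAAA followed, after any 2 bases, by a second GAAA, in the RefSeq promoter windows of GRCm38.p6, which run from 250 bases before to 50 bases after a start site. A window was found for 23 of the 33 genes and not for Dhx58, Ifi27, Mx1, Mx2, Oas2, Parp9, Parp14, Rtp4, Usp18 and Zbp1. The core was present in 11 of the 23 genes, against 3.99% of 27025 genes (3.44% of 32851 windows). By direction it was present in 5 of 6 matched genes that were higher in tdTom+, in 5 of 11 that were lower and in 1 of 6 that did not pass. The 12 matched genes without it included Trim25, which rose, and Ifnar1, Ifnlr1, Irf1, Irf9, Dtx3l and Ifi35, which fell. Matches are letters in a window and do not show binding. The 30 bases that hold the core nearest to the start site, or more than 1 core where they fitted, are shown for 3 members that fell and 3 that rose, to give the letters behind these matches. All 6 were picked for holding a core, so that they share one is no finding. They are printed with the core in capitals and written 5′ to 3′ on the strand of the gene. The windows lie at chr19:34640785-34640814 (Ifit1, plus strand), chr19:34583397-34583426 (Ifit3, plus strand), chr4:156200871-156200900 (Isg15, minus strand), chr12:26456553-26456582 (Rsad2, minus strand), chr5:120777715-120777744 (Oas3, minus strand) and chr5:120907526-120907555 (Oas1a, minus strand), all before the annotated start of the gene.
Ifit1: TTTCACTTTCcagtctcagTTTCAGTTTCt
Ifit3: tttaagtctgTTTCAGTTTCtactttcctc
Isg15: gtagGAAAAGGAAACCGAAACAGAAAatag
Rsad2: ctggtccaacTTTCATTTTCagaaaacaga
Oas3: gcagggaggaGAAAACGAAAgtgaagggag
Oas1a: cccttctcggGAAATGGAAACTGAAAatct
Isg15 had 3 overlapping cores, Ifit1 and Oas1a had 2 each, and Ifit3 had a second core farther from the start site. The first 3 lines belong to genes that were lower in tdTom+ and the last 3 to genes that were higher.

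Both receptor chains on the list were lower in secretory cells. Ifnar1 (chr16:91485238-91507441), a signalling chain of the type I receptor, was at 29.3 to 36.6 CPM (median 30.7) in tdTom+ and 36.4 to 47.4 CPM (median 44.4) in tdTom-. All 8 mice were lower in tdTom+, the log2 fold change was -0.47 ± 0.06 (SE) and the adjusted p was 4.42e-06. Ifnlr1 (chr4:135686287-135708181), the chain that makes a receptor specific for type III interferon, was at 7.97 to 15.5 CPM (median 11.5) in tdTom+ and 12.7 to 41.9 CPM (median 32.5) in tdTom-. It was lower in tdTom+ in all 8 mice and its log2 fold change was -1.27 ± 0.12 (SE), with an adjusted p of 3.68e-07. In tdTom-, mice 7 and 8 had 12.7 and 15.2 CPM and the other 6 mice had 30.3 CPM or more, so the fractions overlapped only through those 2 libraries. Without mice 7 and 8 the log2 fold change of Ifnlr1 was -1.46.

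The factors that carry the signal to promoters were lower in tdTom+ for 3 of 4 genes. Irf9, the DNA-binding part of the STAT complex, was at 18.4 to 27.1 CPM (median 23.4) in tdTom+ and 31.6 to 54.1 CPM (median 44.2) in tdTom-, with no overlap. Its log2 fold change was -0.89 ± 0.08 (SE), with an adjusted p of 3.9e-07. Stat2, its partner, was at 34.7 to 60.2 CPM (median 51) in tdTom+ and 35 to 104 CPM (median 69.9) in tdTom-, and its log2 fold change was -0.42 ± 0.11 (SE) with an adjusted p of 0.00323. The Stat2 call was lost without the block (adjusted p = 0.0397 in edgeR and 0.0356 in DESeq2) and without mouse 1, 3 or 5 in turn, where the adjusted p was 0.011, 0.0491 and 0.0102. The call was also lost when every library had to hold at least 10 counts (adjusted p = 0.0241 in edgeR). Irf1, a factor that responds mainly to type II interferon, was at 113 to 164 CPM (median 122) in tdTom+ and 127 to 214 CPM (median 177) in tdTom-. All 8 mice were lower in tdTom+ although the ranges overlapped, and the log2 fold change was -0.40 ± 0.06 (SE). Irf7, the factor that amplifies type I interferon production, was at 72.8 to 117 CPM (median 88.3) in tdTom+ and 56.5 to 135 CPM (median 93.6) in tdTom-. It was higher in 4 of 8 mice and did not pass, with a log2 fold change of 0.03 ± 0.09 (SE).

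The sensors of foreign nucleic acid were mixed. Ddx58, which encodes RIG-I, a receptor for viral RNA ends, was at 27.2 to 34.3 CPM (median 31.7) in tdTom+ and 33.9 to 69.1 CPM (median 55) in tdTom- and was lower in all 8 mice, with a log2 fold change of -0.74 ± 0.08 (SE). Trim25, a ubiquitin ligase linked to RIG-I activation, moved the other way: it was at 154 to 272 CPM (median 192) in tdTom+ and 83.4 to 128 CPM (median 104) in tdTom-, with no overlap. Its log2 fold change was 0.89 ± 0.09 (SE) and its adjusted p was 1.26e-06. Ifih1, which encodes the long-RNA sensor MDA5, was at 52.8 to 65.9 CPM (median 60.4) in tdTom+ and 47.6 to 87.4 CPM (median 75.7) in tdTom- and did not pass. Dhx58, which encodes LGP2, a regulator of both, was at 4.88 to 8.98 CPM (median 5.65) in tdTom+ and 4.73 to 9.31 CPM (median 6.04) in tdTom- and did not pass. Zbp1, a sensor of Z-form nucleic acid that can start cell death, had the widest spread of the 33 in tdTom-, with 16.2 to 53 CPM (median 25.5) in tdTom+ and 6.46 to 55.7 CPM (median 20.8) in tdTom-, and did not pass, with a log2 fold change of 0.42 ± 0.17 (SE). Without mouse 5 the adjusted p of Zbp1 was 0.00683, with a log2 fold change of 0.56, and without mouse 8 the call of Ifih1 was lower (log2 fold change -0.31, adjusted p = 0.00188). With all 8 mice Ifih1 passed as lower in edgeR when total counts replaced TMM (adjusted p = 0.00958).

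The IFIT genes, which lie side by side on chromosome 19 and encode proteins that bind viral RNA caps, held the largest drop. Ifit3 (chr19:34583531-34588731) was at 0.499 to 1.82 CPM (median 0.904) in tdTom+ and 2.87 to 7.74 CPM (median 6.16) in tdTom-, with no overlap. Its log2 fold change was -2.57 ± 0.16 (SE), with an adjusted p of 9.08e-09. Of its 50-base stretches 51.2% were shared with transcripts of the neighbouring copy Ifit3b, so the division of reads between the pair is uncertain. Ifit1 (chr19:34640871-34650009) was at 5.86 to 13 CPM (median 6.92) in tdTom+ and 8.28 to 38.8 CPM (median 18.9) in tdTom-, and was lower in tdTom+ in all 8 mice. The log2 fold change of Ifit1 was -1.31 ± 0.15 (SE), with an adjusted p of 4.35e-06. Ifit2 was low in both fractions, 0.637 to 1.56 CPM (median 1.31) in tdTom+ and 1.01 to 3.1 CPM (median 1.8) in tdTom-, and did not pass (log2 fold change -0.61 ± 0.19 (SE)). It passed as lower when mouse 6 or mouse 8 was left out, with adjusted p of 0.00365 and 0.00917. With all 8 mice Ifit2 passed as lower in edgeR with total counts in place of TMM (adjusted p = 0.00803) and with no filter on low counts (0.00749).

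The OAS genes, which make 2',5'-oligoadenylates that activate RNase L, were the family in which most members were higher in tdTom+. Oas2 (chr5:120730333-120749853) was at 3.99 to 15.1 CPM (median 8.17) in tdTom+ and 0.821 to 4.4 CPM (median 3.29) in tdTom-, and was higher in tdTom+ in all 8 mice. Its log2 fold change was 1.61 ± 0.20 (SE), with an adjusted p of 8.53e-06. Oas3 (chr5:120753098-120777661) was at 22.7 to 43.4 CPM (median 37.8) in tdTom+ and 7.14 to 28.4 CPM (median 20.2) in tdTom-. It was higher in 7 of 8 mice, and mouse 6 was the exception with 22.7 CPM in tdTom+ and 24.9 CPM in tdTom-. The log2 fold change of Oas3 was 0.93 ± 0.17 (SE), with an adjusted p of 0.000296. Oas1a was at 20.5 to 35.7 CPM (median 26.1) in tdTom+ and 8.7 to 21.4 CPM (median 14.3) in tdTom-, and Oas1g was at 11.4 to 23.3 CPM (median 15.3) in tdTom+ and 6.29 to 18.8 CPM (median 11.6) in tdTom-. Both were higher in tdTom+ in all 8 mice, with log2 fold changes of 0.87 ± 0.08 (SE) and 0.47 ± 0.08 (SE). Oas1a shared 57.6% of its 50-base stretches with Oas1g, so their separate values are uncertain, and the Oas1g call was lost without the block (adjusted p = 0.0385). Oasl2, an OAS-like protein, was at 40.6 to 72.7 CPM (median 53.1) in tdTom+ and 23.4 to 88.4 CPM (median 48.2) in tdTom- and did not pass. No scaling that was tried turned the direction of an OAS gene that passed.

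The MX genes belong to a family of antiviral GTPases. In C57BL/6 mice Mx1 carries a deletion and gives no functional protein, and whether Mx2 gives one in these mice was not examined. Mx1 was at 3.15 to 15.4 CPM (median 7.46) in tdTom+ and 2.55 to 11 CPM (median 6.99) in tdTom-, and was higher in 7 of 8 mice without passing (log2 fold change 0.31 ± 0.16 (SE)). The exception was again mouse 6, and without it the log2 fold change was 0.47 with an adjusted p of 0.00176. Mx2 was at 0.54 to 1.65 CPM (median 1.31) in tdTom+ and 1.35 to 4.66 CPM (median 2.34) in tdTom-, was lower in tdTom+ in all 8 mice and had a log2 fold change of -1.06 ± 0.17 (SE). Isg15, a ubiquitin-like protein that is joined to other proteins, was at 6.27 to 16.1 CPM (median 8.69) in tdTom+ and 7.56 to 27.8 CPM (median 15.5) in tdTom-. It was lower in tdTom+ in all 8 mice, with a log2 fold change of -0.72 ± 0.10 (SE) and an adjusted p of 1.69e-05. Usp18, the protease that removes ISG15 and restrains the type I receptor, was at 3.15 to 6.82 CPM (median 4.73) in tdTom+ and 2.87 to 11.6 CPM (median 6.21) in tdTom- and did not pass (log2 fold change -0.35 ± 0.15 (SE)). Without mouse 8 Usp18 passed as lower, with an adjusted p of 0.00621.

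The 3 listed genes of the PARP and DTX3L group were all lower in tdTom+. The PARP genes on the wider pathway list were split. Parp12 was higher in tdTom+ in all 8 mice with no overlap, with a log2 fold change of 1.11 ± 0.11 (SE) and an edgeR adjusted p of 7.99e-07. Parp10 was lower in all 8 mice, with a log2 fold change of -0.65 ± 0.07 (SE). Parp9, an ADP-ribose-binding protein, and Dtx3l, the ubiquitin ligase it works with, start next to each other on opposite strands of chromosome 16. Parp9 (chr16:35938470-35972605) was at 28.5 to 50.4 CPM (median 36) in tdTom+ and 66.8 to 115 CPM (median 82.2) in tdTom-, with no overlap. The log2 fold change of Parp9 was -1.17 ± 0.07 (SE), with an adjusted p of 2.62e-09. Dtx3l (chr16:35926511-35939151) was at 41.6 to 62.6 CPM (median 50.8) in tdTom+ and 66.8 to 138 CPM (median 91.8) in tdTom-, with a log2 fold change of -0.86 ± 0.08 (SE). Parp14 (chr16:35832874-35871544), an ADP-ribosyltransferase, was at 40 to 67.6 CPM (median 57.9) in tdTom+ and 66.9 to 220.2 CPM (median 145) in tdTom-. The ranges of Parp14 met only at the tdTom- library of mouse 8, with 66.9 CPM, and its log2 fold change was -1.30 ± 0.13 (SE).

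**Figure D2:**
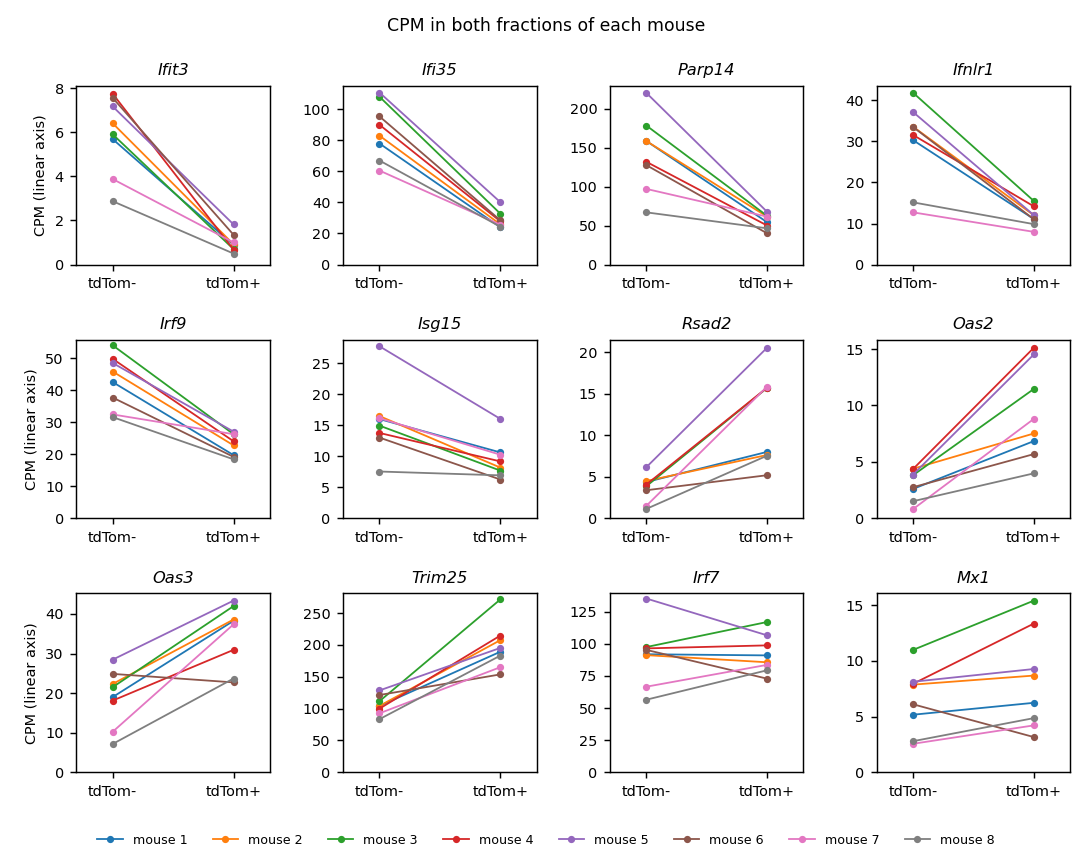
CPM (y axis, linear, from 0) of 12 members in tdTom- and tdTom+ (x axis), with a line for each of the 8 mice. Lines fall in every mouse for Ifit3, Ifi35, Parp14, Ifnlr1, Irf9 and Isg15, rise in every mouse for Rsad2, Oas2 and Trim25, and cross for Irf7. Mice 7 and 8 start lowest in tdTom- for Ifnlr1 (12.7 and 15.2 CPM).

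The other effectors held the gene that rose most. Rsad2 (chr12:26442753-26456452), which encodes viperin, an enzyme that makes a chain-terminating nucleotide, was at 5.2 to 20.6 CPM (median 11.9) in tdTom+ and 1.14 to 6.16 CPM (median 3.97) in tdTom-. It was higher in tdTom+ in all 8 mice, with a log2 fold change of 1.72 ± 0.26 (SE) and an adjusted p of 4.45e-05. Bst2, or tetherin, which holds budding virions at the cell surface, was at 5.78 to 9.97 CPM (median 6.88) in tdTom+ and 3.34 to 10.1 CPM (median 4.96) in tdTom-. It was higher in 7 of 8 mice (log2 fold change 0.45 ± 0.09 (SE)), and the call was lost without the block (adjusted p = 0.073). Ifi35 (chr11:101448407-101458698), a cytosolic partner of NMI, was at 24 to 40.1 CPM (median 26.9) in tdTom+ and 60.5 to 111 CPM (median 86.5) in tdTom-, with no overlap. This gave a log2 fold change of -1.59 ± 0.06 (SE), with an adjusted p of 8.47e-11. Ifi27, a small membrane protein, was at 11.6 to 19.5 CPM (median 14.1) in tdTom+ and 9.44 to 31.6 CPM (median 26.7) in tdTom-, and was lower in 7 of 8 mice (log2 fold change -0.68 ± 0.12 (SE)). Ifi44, which was near 1 CPM, was at 0.748 to 2.16 CPM (median 1.12) in tdTom+ and 0.549 to 4.52 CPM (median 1.48) in tdTom- and did not pass. Xaf1, a binding partner of the apoptosis inhibitor XIAP, was at 4.24 to 10.2 CPM (median 7.37) in tdTom+ and 4.35 to 12.1 CPM (median 8.45) in tdTom- and did not pass. Rtp4, a receptor-transporting protein, was at 3.44 to 9.78 CPM (median 5.07) in tdTom+ and 4.39 to 11.5 CPM (median 8.23) in tdTom- and did not pass at an adjusted p of 0.0127. Leaving out mouse 7 gave Rtp4 a log2 fold change of -0.69 with an adjusted p of 0.000442. With all 8 mice Rtp4 passed as lower in DESeq2 with the block (adjusted p = 0.00542). In edgeR it passed with total counts in place of TMM (0.00729), with no filter on low counts (0.00254) and after thinning (0.00817).

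Levels of different genes were compared as mean CPM per kilobase of exon. In tdTom+ the 3 highest of the 33 were Trim25 (34.3), Irf1 (33.6) and Irf7 (30.4), and in tdTom- they were Ifi35 (50.1), Irf1 (44.4) and Irf7 (30.2). Ifi44 was the lowest in both fractions, at 0.201 and 0.296 CPM per kilobase, and Ifit2 was next. The effectors Ifit2, Ifi44, Mx2 and Ifit3 were all under 1 CPM per kilobase in tdTom+, below every factor. Factors and effectors were not separated as groups, however. In tdTom+ the effectors Ifi35, Oasl2, Oas1a and Isg15 were above the factors Stat2 and Irf9 and below Irf1 and Irf7. In tdTom- Ifi35 was above every factor. Isg15 was at 12.4 CPM per kilobase in tdTom+ and 20.8 in tdTom-.

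How far the mice of one fraction differed was then described. The SD of log2 CPM over the 8 mice had a median of 0.30 over the 33 genes in tdTom+, against 0.21 over all genes, and of 0.48 in tdTom-, against 0.27. In tdTom+ it ran from 0.10 for Ifnar1 to 0.80 for Mx1, and in tdTom- from 0.13 for Ifnar1 to 0.97 for Zbp1. Without mice 7 and 8 the median in tdTom- was 0.26, against 0.19 over all genes, and in tdTom+ it was 0.28, against 0.195. The larger spread in tdTom- therefore came with those 2 mice. The 33 genes also rose and fell together over the mice: the median Pearson r of all pairs of members was 0.55 in tdTom+ and 0.75 in tdTom-, against 0.00 over all pairs of genes tested in each (points within a fraction share library and scaling, and no p is given).

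Mouse 5 stood highest. In tdTom+ it had the highest level of the 8 mice for 21 of 33 genes, against 14.3% of all genes, and in tdTom- for 25 of 33, against 14.9%. It was highest in both fractions for 18 of 33 members, against 790 of 15323 genes. Each of the 33 genes was above the mean of the other 7 mice in both fractions of mouse 5, by a median of 0.51 (log2) in tdTom+ and 0.68 in tdTom-, while the median over all genes was 0.03 and -0.01. Mouse 5 had 16.1 CPM of Isg15 in tdTom+ and 27.8 CPM in tdTom-, where the other mice had 6.27 to 10.6 and 7.56 to 16.5 CPM. Ifit1 was at 13 and 38.8 CPM there, where the others had 5.86 to 8.62 and 8.28 to 21.9 CPM. The depth of the 2 libraries of mouse 5, 21894729 and 21151412 counts, was within the range of the others, and their lymphocyte marker sums were 11.3 and 23.7 CPM. Their absorptive marker sums, 6021 and 38350 CPM, were the highest of each fraction, and the part of that in the result was not tested. The 8 myeloid and plasmacytoid markers summed to 315 CPM in tdTom+ and 1166 CPM in tdTom- of mouse 5 and to 366 and 1166 CPM in those of mouse 7, where the other mice had 23.6 to 48.6 and 194 to 326 CPM. Most of this was Cd74, the invariant chain of MHC class II, with 291 and 985 CPM in mouse 5 and 362 and 1108 CPM in mouse 7. In mouse 5 the macrophage marker Csf1r was at 0.127 and 0.822 CPM and Adgre1 at 0.0423 and 0.228 CPM, and Siglech had no count. The part of these markers in the result was not tested.

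Mouse 8 stood lowest in tdTom-. There it had the lowest level for 26 of 33 genes, against 1534 of 15323 genes, and only 1 member was above the mean of the others. The median deviation was -0.90 in tdTom- and -0.35 in tdTom+. Mouse 7 was lower than the mean of the others for 26 of 33 genes in tdTom- and higher for 24 of 33 in tdTom+, with median deviations of -0.43 and 0.17. The tdTom- library of mouse 7 stood apart for all genes as well, since it was the highest of 8 for 32.1% and the lowest for 28.4% of them. Within single mice, the median difference of the 33 genes between tdTom+ and tdTom- was -0.40 to -0.67 in mice 1 to 6, but 0.04 in mouse 7 and -0.01 in mouse 8. The tdTom- libraries of these 2 mice had the 2 highest lymphocyte marker sums. They also had the 2 lowest absorptive sums (14550 and 24820 CPM, with 27680 to 38350 CPM in the others), the 2 lowest tuft sums (17.7 and 31.4 CPM, with 59.5 to 102 CPM in the others) and the 2 highest stem sums (2894 and 1817 CPM, with 1157 to 1672 CPM in the others). The part of any of these in the result was not tested.

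**Figure D3:**
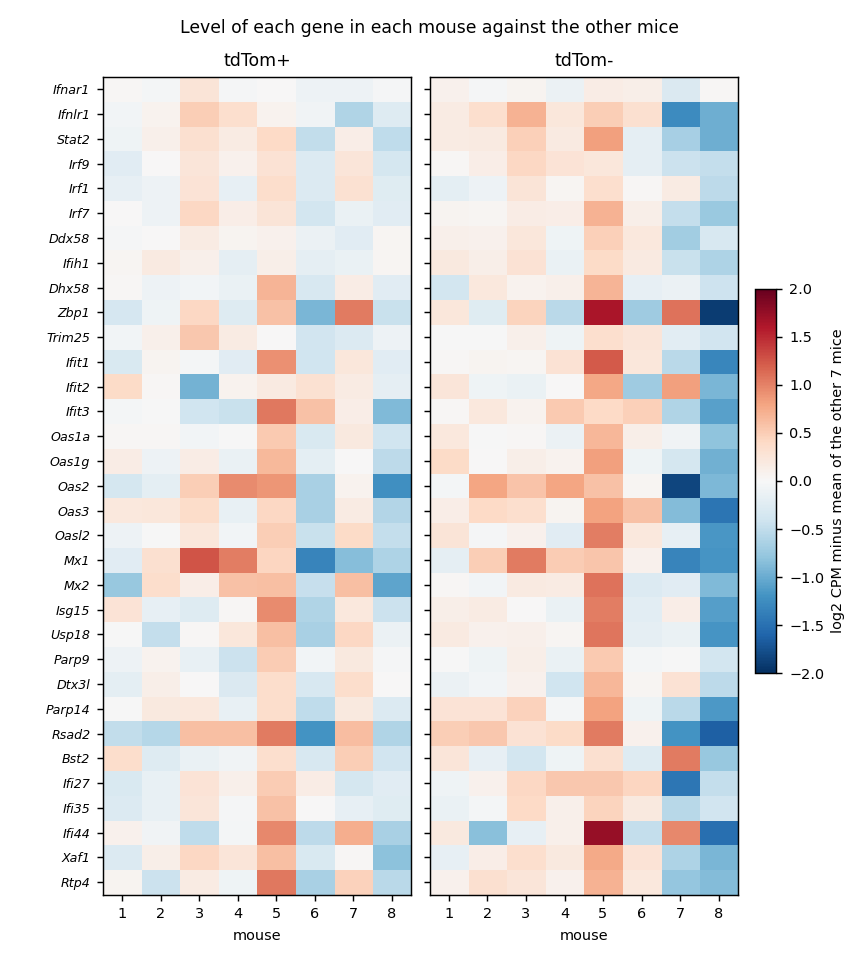
Log2 CPM of each of the 33 genes (rows, by role) in each mouse (columns) minus the mean of the other 7 mice, for tdTom+ (left) and tdTom- (right); red is higher and blue lower, and the colour scale ends at 2 and -2. The column of mouse 5 is red in both fractions, and that of mouse 8 in tdTom- is blue for all but 1 gene.

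To ask whether the level of a member is shared by both fractions of a mouse, its level in tdTom+ was correlated with that in tdTom- over the 8 mice, by a two-sided permutation test, exact over the 40320 orders of the mice, and adjustment over all 15323 genes. All 33 members had a positive Pearson r, with a median of 0.64, against 82.0% positive and a median of 0.42 over all genes. None of the 33 passed an adjusted p of 0.05, a threshold that 0.907% of all genes passed, while 13 of 33 had an unadjusted p under 0.05 in that test, against 21.2% of all genes. Bst2 came closest (r = 0.91, Spearman's rho = 0.90, exact permutation p = 0.000546, adjusted p = 0.0526), and without the 2 mice farthest from the median its r was 0.91. Oas1g had r = 0.91 (rho = 0.81, exact permutation p = 0.00764, adjusted p = 0.109), and 0.48 without its 2 farthest mice, 5 and 8. Ifi44 had r = 0.90 (rho = 0.93, exact permutation p = 0.00221, adjusted p = 0.0772), and 0.77 without mice 5 and 8. Isg15 had r = 0.81 (rho = 0.76, exact permutation p = 0.0279, adjusted p = 0.184), and 0.65 without mice 5 and 8. Trim25, Rsad2, Ifit2 and Rtp4 had the lowest r, from 0.10 to 0.28. The median r was 0.45 without mouse 5 and 0.77 without mice 7 and 8. With 7 mice the smallest p allowed is 0.000198, and no gene of the whole table passed the adjusted threshold. That no member passed there says nothing particular to the members.

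**Figure D4:**
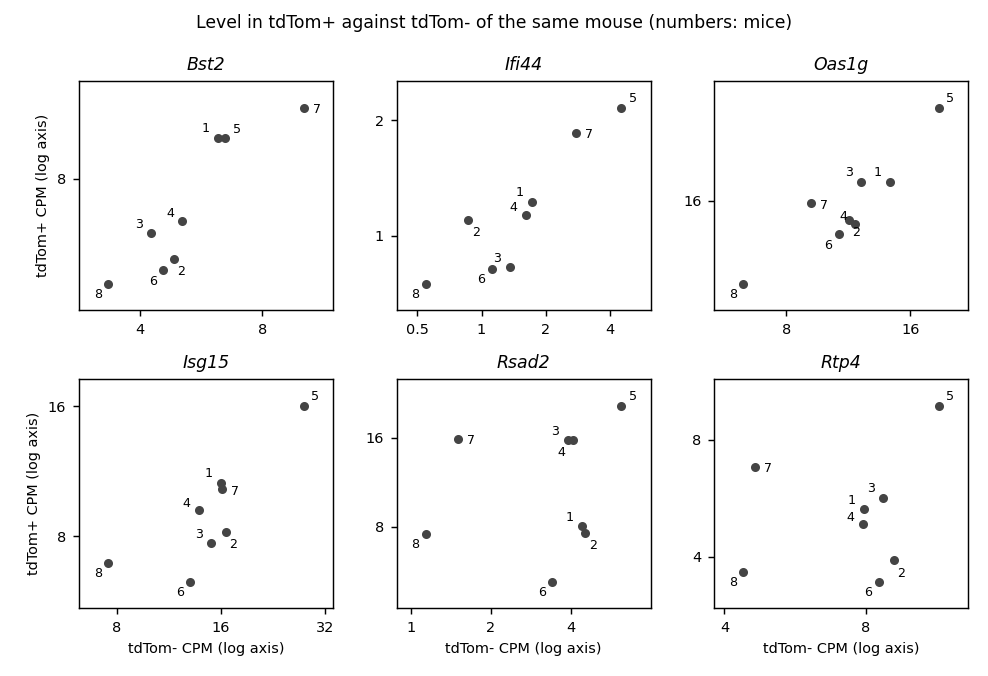
CPM in tdTom+ (y axis) against CPM in tdTom- (x axis) of the same mouse for 6 members, both axes on a log scale, with the number of the mouse beside each point. Bst2, Ifi44, Oas1g and Isg15 rise together (r = 0.91, 0.90, 0.91 and 0.81), while in Rsad2 and Rtp4 mouse 7 is low in tdTom- and high in tdTom+.

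Other genes of the pathway, 101 on a list of ligands, receptors, signalling proteins, sensors and effectors, gave a similar mixture. Of the 84 that passed the filter, 20 were higher in tdTom+, 35 were lower and 29 did not pass, with a median log2 fold change of -0.23. Among all genes 25.8% were higher and 30.0% were lower. Without the block 13 of the 84 were higher and 26 lower, against 3473 and 4133 of all 15323 genes. Of 10 interferon genes, 8 had no count in any library. By 3 counts over the total without TMM scaling, this allows a level of up to 0.175 CPM in the shallowest library. On the TMM scale of the other levels the limit in that library is somewhat higher. Ifnl2 reached 0.0503 CPM and Ifng 0.101 CPM at most, both under that limit. Among the receptors, Ifnar2, the other type I chain, was at 3.51 to 5.38 CPM (median 4.81) in tdTom+ and 7.22 to 11.1 CPM (median 8.95) in tdTom-, with a log2 fold change of -0.95 ± 0.09 (SE). Il10rb, the chain that IFNLR1 pairs with, was at 38 to 55.7 CPM (median 48.3) in tdTom+ and 43.6 to 67.9 CPM (median 63.2) in tdTom-, with a log2 fold change of -0.30 ± 0.06 (SE). Exons of the read-through gene Gm21970 overlap 9.46% of the exon bases of Ifnar2 and 14.9% of those of Il10rb, and reads there were not counted for either gene. The Il10rb call was lost without mouse 3 (adjusted p = 0.014) and when every library had to hold at least 10 counts (adjusted p = 0.0106 in edgeR).

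The largest changes on that list exceeded those of the 33 genes. Ifit1bl2, an IFIT1-like gene, was at 5.36 to 15 CPM (median 6.48) in tdTom+ and 33.4 to 118 CPM (median 72.6) in tdTom-, with a log2 fold change of -3.20 ± 0.11 (SE). Ifit3b, Apol9b, Apol9a and Slfn2 followed, with log2 fold changes of -2.55, -2.28, -2.13 and -1.72, each lower in all 8 mice. Apol9a and Apol9b are near-identical copies, and 52.3% of the 50-base stretches of Apol9b also occur in Apol9a. In the other direction, Gbp2, a guanylate-binding protein that attacks pathogen vacuoles, was at 5.08 to 54.2 CPM (median 6.26) in tdTom+ and 0.0543 to 2.01 CPM (median 0.541) in tdTom-, with no overlap and a log2 fold change of 4.41 ± 0.22 (SE). Tor3a, an interferon-induced ATPase of the endoplasmic reticulum, was at 47.6 to 80.8 CPM (median 62.9) in tdTom+ and 5.38 to 13 CPM (median 6.79) in tdTom- (log2 fold change 3.05 ± 0.15 (SE)). Isg20, an exonuclease, Gbp9 and Tmem173, which encodes the DNA-pathway adaptor STING, had log2 fold changes of 2.19, 1.77 and 1.45, each higher in all 8 mice.

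The guanylate-binding proteins (GBP) and immunity-related GTPases (IRG), which answer mainly to type II interferon, had another order of mice. Of 16 listed, 12 passed the filter, 6 were higher in tdTom+ and 4 lower (against 25.8% and 30.0% of all genes), and 2 did not pass. Most of these calls needed the block, since without it 3 of the 6 higher calls were kept (Gbp2, Gbp7 and Gbp9), and the adjusted p of edgeR was 0.031 to 0.206 for the 4 that had been lower (Igtp, Ifi47, Gbp6 and Irgm2). Mouse 7 had the highest level in both fractions for 11 of the 12, and mouse 5 for the other 1, whereas mouse 7 was highest in both for 1 of the 33 interferon-stimulated genes. Over all genes tested, mouse 7 was highest in both for 1796 of 15323. In mouse 7 the list summed to 267 CPM for tdTom+ and 249 for tdTom-, in mouse 5 to 139 and 168 CPM, and the other libraries had 57.3 to 76.9 CPM. Gbp2 was at 54.2 CPM in tdTom+ of mouse 7 and 17.5 CPM in that of mouse 5, against 5.08 to 8.79 CPM in the other 6. Mice 5 and 7 are also those with the high myeloid marker sums given above, most of it Cd74, and the part of that in the result was not tested. Over the 8 mice the fractions correlated with a median r of 0.90 for these 12 genes. Of the 12 only Gbp7 passed the adjusted threshold, and genes of the pathway list outside this group passed it as well. Gbp7 had r = 0.96 (rho = 0.90, exact permutation p = 0.000347, adjusted p = 0.0475), and its r was 0.80 without mice 5 and 7. For Irgm2 and Ifi47 the relation rested on those 2 mice, since r fell from 0.91 to -0.00 and from 0.92 to -0.26 without them.

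**Figure D5:**
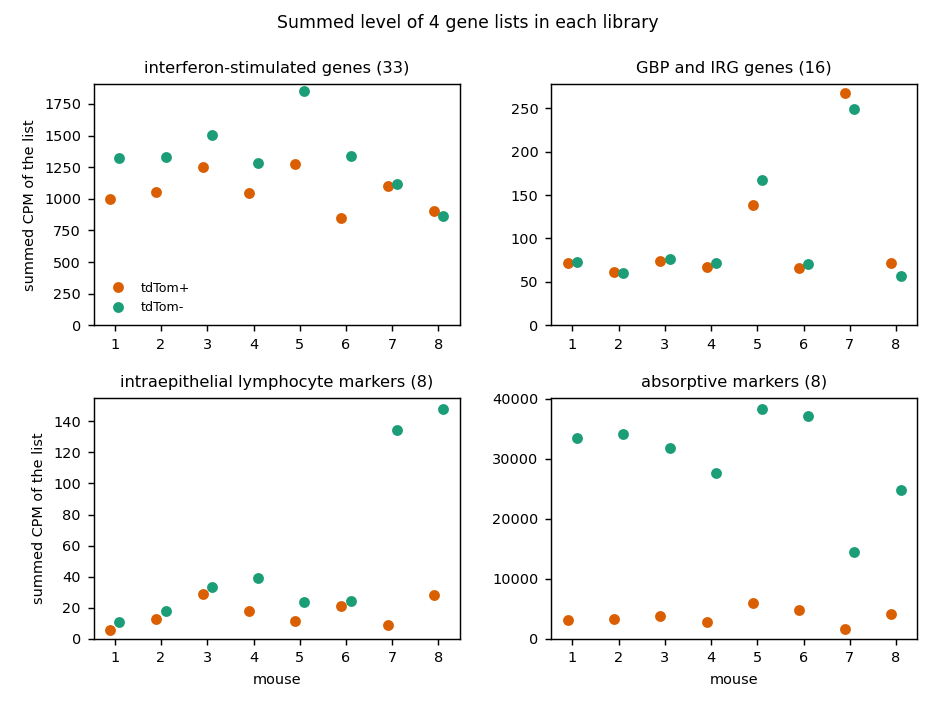
Summed CPM (y axis, from 0) of the 33 interferon-stimulated genes, the 16 GBP and IRG genes, the 8 intraepithelial lymphocyte markers and the 8 absorptive markers in each library, by mouse (x axis) and fraction (colour). The interferon-stimulated sum is highest in mouse 5 in both fractions, the GBP and IRG sum in mouse 7, and the lymphocyte sum in the tdTom- libraries of mice 7 and 8.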

How the data were processed

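RNA-seq had been run on 16 libraries, EpCAM+tdTom+ and EpCAM+tdTom- cells of 8 mice. Raw counts by Ensembl gene were deposited. Per the file headers, the authors made them with featureCounts 1.5.0-p1, on the reverse strand, by exon and with primary alignments only, after alignment with TopHat2 2.1.1 to GRCm38.p3 per the submitters' notes, which also list Subread 1.5.2 and DESeq2 1.14.1. A read in exons of more than 1 gene on a strand was not counted, and near-identical genes can share reads in an arbitrary way. GENCODE M21 (GRCm38) gave symbols for 44585 of 45513 identifiers.

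Counts were analysed with edgeR 4.0.16 (quasi-likelihood F-test) in R 4.3.3, after filterByExpr by group and TMM scaling. The threshold was an adjusted p of 0.01 (Benjamini-Hochberg over 15323 genes), and the design had the mouse as a block. Numbers in the titles, together with the series' statement that both fractions came from each mouse, pair the libraries. In the data, deviations of same-numbered libraries from their group means correlated at 0.24 to 0.63 (mean 0.43), against a mean of -0.06 for other pairs, and all 8 matched best with their own number. The study's methods name no block, and the unpaired fit was an alternative. Values are TMM-scaled CPM, and log2 CPM used a prior count of 2. Correlation over mice used an exact permutation test with a threshold of 0.05 on the adjusted p. Both steps were tested on simulated data. Promoter windows are from RefSeq (GRCm38.p6).

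The members were given by name, and the members and lists were chosen with earlier results of these data known. Every member is described, and other pathway genes were named by rule: the 5 largest and 5 smallest log2 fold changes among those past the threshold whose mean in either fraction was 1 CPM or more, plus Ifnar2, Il10rb and ligands with a count. A gene that this rule also names is not reported here. Members singled out beside a figure or a mouse were chosen after their values were seen. Marker lists held 8 genes each, for goblet, Paneth, absorptive, stem and tuft cells, intraepithelial lymphocytes and myeloid cells. Of the stem cell markers, 4 were higher in tdTom+ and 4 did not pass. Intervals and limits from counts cover counting error only. Alternatives were DESeq2 1.42.0, limma-voom (limma 3.58.1), other scalings and filters, thinning to the smallest library, a prior count of 0.5, other thresholds, Spearman's rho and leaving out each mouse.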

Additional observations from a re-analysis of the deposited data

Results flagged for a closer look

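In 92 sets of 8 libraries (33 members and 13 pathway genes in each fraction), the highest or lowest library was tested for a gap to the others that exceeded Dixon's 95% critical value for 8 values. The gap was taken on log2 CPM, as a share of the range on that scale, and the levels below are in CPM. In 4 sets it did, where chance alone gives about 1 in 20 sets, or 4.6. Ifnar1 in tdTom+ was at 36.6 CPM in mouse 3, with 29.3 to 31.6 CPM in the others (gap 0.655 of the log2 range). Ifit2 in tdTom+ was at 0.637 CPM in mouse 3, with 1.08 to 1.56 CPM in the others (gap 0.581). Il10rb in tdTom+ was at 38.03 CPM in mouse 7, with 46.8 to 55.7 CPM in the others (gap 0.543). Dhx58 in tdTom+ was at 8.98 CPM in mouse 5, with 4.88 to 6.51 CPM in the others (gap 0.527), and it is 1 of the 21 members that mouse 5 led in that fraction.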

How the results depend on the processing

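Without the replicate block, 19 of 33 members passed (5 higher, 14 lower), and Stat2, Oas1g and Bst2 were lost. Of all 15323 genes, 3473 were higher and 4133 lower in that fit. The unpaired fit called 13 other pathway genes higher and 26 lower, 3 of the 12 GBP and IRG genes, all higher, and 6 tuft, 3 stem, 4 lymphocyte and 3 myeloid markers in place of 7, 4, 6 and 4. DESeq2 with the block called 23 members and without it 19. Of all 15323 genes, it called 4059 higher and 4478 lower with the block, and 3759 and 4228 without it. In the edgeR fits the pairing changed the call of no other member. Over all settings except the fold limit, 19 to 27 members passed. When an absolute log2 fold change of 1 or more was also required, 9 members passed (2 higher, 7 lower) and 21 other pathway genes (11 higher, 10 lower). No count over all genes is given at that limit, so whether the members differ from all genes there cannot be said. Leaving out 1 mouse at a time gave 21 to 25 members (7 to 8 higher, 14 to 18 lower), 51 to 58 other pathway genes (17 to 23 higher, 28 to 37 lower) and a median log2 fold change of -0.47 to -0.30. Of all 15205 to 15392 genes tested in those fits, 3637 to 4529 were higher and 3626 to 4623 lower. Irf7 and Dhx58, which did not pass, turned direction, Irf7 to -0.0303 with total counts, to -0.0862 without mice 7 and 8 and in the range -0.0295 to 0.1068 with 1 mouse left out, and Dhx58 to 0.0745 with at least 10 counts in every library and in the range -0.0901 to 0.0763 with 1 mouse left out. For single genes, 354 values kept their direction and call with 1 mouse left out, 4 lost it, 7 gained it and 3 turned.

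The median r between the fractions was 0.45 to 0.77 with 1 mouse left out, 0.77 without mice 7 and 8, and 0.52 as Spearman's rho, and no member passed in any of these. With 1 mouse left out no gene of the whole table passed either. The median r between members was 0.42 to 0.62 in tdTom+ and 0.63 to 0.83 in tdTom- with 1 mouse left out, lowest without mouse 5 and mouse 8, and 0.62 in tdTom- without mice 7 and 8, where the median SD was 0.26. The median SD was 0.28 to 0.32 in tdTom+ and 0.37 to 0.52 in tdTom- with 1 mouse left out.

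The median log2 fold change of all genes moved by over 0.1, to 0.12, when every library had to hold at least 10 counts or mouse 3 was left out. In those fits 4448 genes were higher and 3356 lower, and 4529 higher and 3626 lower, against 3956 and 4600. Members near 1 CPM (Ifit2, Ifit3, Ifi44, Mx2) rest on few counts.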
